A study of Caenorhabditis elegans with 52 samples.

Results

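The 3 piRNA genes described here are 21ur-8191, 21ur-770 and 21ur-3117, of 15363 annotated piRNA genes in *C. elegans*, 14341 of which lie in the 2 piRNA domains of chromosome IV. They were chosen by measured values: among 5932 domain genes whose upstream nucleosome was above the median in mean occupancy at high salt and differed in the same direction at both salt concentrations, their upstream nucleosome had the lowest high-salt change in *prde-1* relative to wild type. The 3 genes make up 2 loci. 21ur-8191 lies on the plus strand at chrIV:14903021-14903041 (ce11). 21ur-770 (chrIV:16391830-16391850, minus strand) and 21ur-3117 (chrIV:16392085-16392105, plus strand) are transcribed away from each other, with 5′ ends 235 bp apart, and share 1 upstream nucleosome. All 3 lie in the right-hand domain, which spans 13500001 to 17300000 and holds 11534 piRNA genes, and the 2 loci are 1489 kb apart. No gene other than piRNA genes is annotated within 1 kb of them. The nearest protein-coding genes are pnc-2, 1937 bp from 21ur-8191, and Y65A5A.24, 1863 bp from 21ur-3117.

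In *C. elegans*, piRNAs are 21U-RNAs, small RNAs that begin with a uracil and guide the Argonaute PRG-1 to foreign or harmful transcripts in the germ line. Each Type-I piRNA gene is transcribed on its own by RNA polymerase II into a short capped precursor, and most have a Ruby motif, an 8-base core upstream of the 5′ end of the mature RNA. PRDE-1 is a subunit of the Upstream Sequence Transcription Complex (USTC), which binds these upstream regions, and ISW-1 is an ATPase that moves nucleosomes. A dyad is the centre of a nucleosome.

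The mature sequences are shown because they place the 5′ ends from which every distance is counted. They are read from the reference genome (RefSeq, ce11), 5′ to 3′ on the strand of each gene, with the first base, a U in the RNA, in capitals.
21ur-8191: Tttgaacaccatacaatcttt
21ur-770: Taaacgatttggcttttgtac
21ur-3117: Tagtggaaaatttatagaatt

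The Ruby core CTGTTTCA was searched on the gene strand in the 100 bases before each 5′ end, and is shown in capitals with its flanks, because it lies between the strong upstream dyad and the 5′ end.
21ur-8191 (chrIV:14902964-14902993, plus strand): aaaaaaaattaCTGTTTCAattattcgata
21ur-770 (chrIV:16391879-16391908, minus strand): aaaaaaaattaCTGTTTCAgaaagtcatta
An exact core lay at positions -46 to -39 before 21ur-8191 and at -47 to -40 before 21ur-770. No core with at most 1 mismatch was found in the 100 bases before 21ur-3117, which says only that these letters are not in that window. Of the 14341 domain piRNA genes, 35.4% held an exact core and 79.4% a core with at most 1 mismatch, with a median first base at -46. The same search before the 3281 protein-coding genes of chromosome IV gave 0.945% and 10.6%. The upstream bases of 21ur-454 and 21ur-7276, flanking genes picked because they hold an exact core and a strong upstream nucleosome, are shown for comparison.
21ur-454 (chrIV:14902806-14902835, plus strand): aaaataatttgCTGTTTCAaattcattgta
21ur-7276 (chrIV:16391369-16391398, minus strand): tttaaaaattaCTGTTTCAgagagtaatta

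Histone H3 was mapped by native ChIP-seq (uncrosslinked chromatin digested to nucleosomes) in germ nuclei isolated from young adults. Of the 52 samples of the series, 16 are H3 samples in 8 groups of 2. Wild type was strain VC2010 and the mutant was strain SX2499, *prde-1*(mj207), which becomes sterile over generations and was collected several hours later than wild type. The other strain is YL701, in which ISW-1 carries eGFP and an auxin-inducible degron (ISW-1::eGFP::AID), and the wrdSi51 transgene expresses the TIR1 ubiquitin ligase adaptor from the mex-5 promoter, active in the germ line. The strain list of the study does not name YL701, so its genotype is taken from the labels alone. It was exposed for 3 h to 1 mM auxin, which triggers degradation of the tagged protein, or to ethanol, the solvent. Both ISW-1 groups carry the tag and the transgene, and wild type carries neither. The last wash of each group held NaCl at 150 mM (low salt) or 500 mM (high salt). The genotype field of the high-salt H3 samples of wild type and *prde-1* names the opposite genotype to their title and strain fields, and the treatment field of some ISW-1 samples names the other salt. Titles were followed. Loss of PRDE-1 or ISW-1 and the germ-cell origin of the nuclei cannot be checked from nucleosome positions.

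The 2 samples of a group were merged before nucleosomes were called, so each group is 1 library, no value has a replicate error, and no test was made. Read depth is unknown. Values are summit occupancies, the H3 signal minus input at the summit of a nucleosome, scaled to one total in each library. They show where signal lies within a library, not how much H3 is left after a wash. Each of the 4 tables pairs 2 libraries and was normalized separately, so tables are compared only by ranks or by multiples of the median nucleosome outside the piRNA domains, which ranged from 98.4 to 132.9 between libraries, and occupancies of different tables that stand in 1 paragraph are not compared. A change is log2 of treated over control occupancy after adding 1 to both. Within 1 kb of the 3 genes the tables listed 23, 25, 27 and 25 nucleosomes, of 545572 (*prde-1*, low salt), 568635 (*prde-1*, high salt), 541779 (auxin, low salt) and 550900 (auxin, high salt).

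The nucleosome upstream of 21ur-8191 was the strongest within 1 kb in all 6 libraries other than those of *prde-1*. In wild type its summit occupancy was 2569.8 at 150 mM, with the dyad 123 bp upstream of the 5′ end, and 6604 at 500 mM, 111 bp upstream. In *prde-1* it was 155 at 150 mM, 6.03% of wild type, and it was listed at 0 at 500 mM. Ethanol-treated worms had 2189.7 at 150 mM (124 bp upstream) and 5637 at 500 mM (108 bp upstream). After auxin the occupancy was 1426 at 150 mM, 65.1% of ethanol, and 3196 at 500 mM, 56.7% of ethanol. The nucleosome was thus 13.4 to 57.3 times the median outside the domains in the 6 libraries of wild type and the ISW-1 strain. In *prde-1* it was 1.28 times that median at 150 mM.

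The shared nucleosome of 21ur-770 and 21ur-3117 lay between their 5′ ends. In wild type it had an occupancy of 1782 at 150 mM, with the dyad 97 bp upstream of 21ur-770 and 138 bp upstream of 21ur-3117, and of 4948 at 500 mM, 106 and 129 bp upstream. In *prde-1* it was 235 at 150 mM, 13.2% of wild type, and it was listed at 0 at 500 mM. In the ethanol libraries it was 1464 at 150 mM and 5672 at 500 mM. After auxin it was 1704 at 150 mM, 116% of ethanol, and 2562 at 500 mM, 45.2% of ethanol. At 150 mM the auxin library was therefore the higher of its pair, whereas at 500 mM it was the lower, and no test of that difference was possible.

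**Figure D1:**
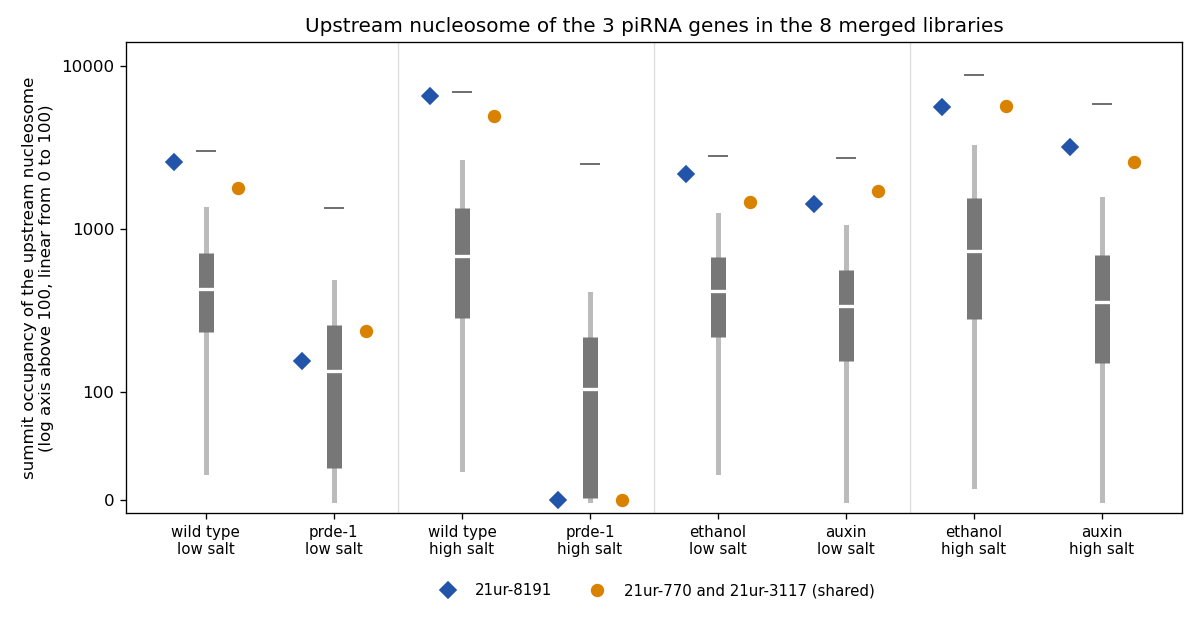
Summit occupancy of the strongest nucleosome within 200 bp upstream (log axis above 100, linear from 0 to 100) in the 8 merged libraries, in pairs by table, for 21ur-8191 (diamonds) and for the nucleosome shared by 21ur-770 and 21ur-3117 (circles). Thick bars span the middle 50% and thin bars the middle 90% of upstream nucleosomes of all domain piRNA genes, white lines are medians and dashes the highest value. Both loci lie above the thin bar in the 6 libraries other than *prde-1* and within it in *prde-1*, at 155 and 235 at 150 mM and at 0 at 500 mM.

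Ranks within a library do not depend on its scaling. In wild type at 500 mM the nucleosome of 21ur-8191 ranked 24th of 568635 in the genome and 2nd of 8894 upstream nucleosomes of domain piRNA genes, and the shared nucleosome ranked 43rd and 13th. At 150 mM they ranked 128th and 416th of 545572. The ethanol libraries took no part in the choice of the genes. There the nucleosome of 21ur-8191 ranked 242nd of 541779 at 150 mM and 69th of 550900 at 500 mM, and the shared nucleosome ranked 1067th and 68th. In *prde-1* at 150 mM, 42.2% of all nucleosomes were higher than that of 21ur-8191 and 27.2% were higher than the shared one. After auxin at 500 mM they were still 79th and 193rd. The change after auxin lay near the middle of that of other piRNA genes. Of the upstream nucleosomes of domain piRNA genes, 60.2% had a lower change than 21ur-8191 and 47.5% a lower change than the shared nucleosome at 500 mM, and 39.9% and 69.9% at 150 mM.

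Being first in the order of fall at 500 mM did not carry over to the order of log2 changes at low salt. At 150 mM in *prde-1*, 23.7% of the upstream nucleosomes of domain piRNA genes had a lower change than 21ur-8191 (-4.04) and 31.7% a lower change than the shared nucleosome (-2.92), against a median of -1.73 over all of them. This low-salt order is also shaped by nucleosomes listed at 0, whose change is set by the 1 that was added. In *prde-1* at 150 mM these were 16.7% of dyads upstream of genes on both strands. Of dyads upstream of genes on 1 strand they were 19.7%. The nucleosomes of the chosen genes were above 0 there. The direction at 150 mM had been part of the choice. At 500 mM the nucleosomes of 21.2% of the eligible dyads (808 of 3805) were listed at 0 in *prde-1*, so the order among them is that of their wild-type values, and the chosen genes are those with the highest wild-type value among nucleosomes listed at 0. The values by which they were chosen, -12.69 for 21ur-8191 and -12.27 for 21ur-770 and 21ur-3117, are set by the 1 that was added. The next 3 genes in the order were 21ur-1227 (4838 in wild type), 21ur-10140 (4819) and 21ur-12520 (4663), all listed at 0 in *prde-1* at 500 mM, so the shared nucleosome at 4948 stands only a little above those just outside the choice.

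Occupancy at 500 mM was higher relative to the rest of the genome than at 150 mM at both loci, except in *prde-1*. The high-salt wild-type and *prde-1* values, and with them these ratios, are those by which the genes were chosen, and only the ISW-1 strain is independent of that choice. In wild type the nucleosome of 21ur-8191 was 21.5 times the median outside the domains at 150 mM and 52.8 times at 500 mM, a ratio of 2.46. The ratio was 3.28 in ethanol and 2.12 after auxin. For the shared nucleosome the multiples were 14.9 and 39.6 in wild type, a ratio of 2.66. In ethanol they were 11.7 and 57.6, a ratio of 4.94, and after auxin 16.0 and 22.7, a ratio of 1.42. The median upstream nucleosome of the domains had ratios of 1.53 in wild type, 2.24 in ethanol, 1.00 after auxin and 0.711 in *prde-1*. After auxin both loci still had a higher multiple at 500 mM than at 150 mM, and *prde-1* went from 1.28 and 1.94 times the median to 0.

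A second strong nucleosome stood further upstream of 21ur-8191, and by position it is upstream of 2 piRNA genes. It lay 131 to 142 bp upstream of 21ur-7093, on the minus strand, and 168 to 179 bp upstream of 21ur-454, on the plus strand, whose 5′ end is 159 bp upstream of that of 21ur-8191. In wild type this nucleosome had an occupancy of 1703 at 150 mM and 2415 at 500 mM, 336 and 327 bp upstream of 21ur-8191. In *prde-1* it was 285 and 17.7. Ethanol libraries had 903 at 150 mM and 2693 at 500 mM, and auxin libraries 325 and 719. The nucleosome upstream of 21ur-8191 therefore lay downstream of the 5′ end of 21ur-454, and the one before it between 21ur-7093 and 21ur-454. Their summits were 215 bp apart in wild type at 150 mM, 231 bp at 500 mM, 204 bp in ethanol at 150 mM and 220 bp at 500 mM. After auxin the nucleosome shared by 21ur-7093 and 21ur-454 was left with 36.02% of ethanol at 150 mM and 26.7% at 500 mM, lower shares than that of 21ur-8191.

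Other nucleosomes around 21ur-8191 were weaker, with none above 578 in any library. At 500 mM those upstream differed in both directions between *prde-1* and wild type, at 0 against 418 at 888 bp, 119 against 0 at 760 bp and 14.8 against 65.8 at 486 bp. In *prde-1* at 150 mM, those 522 to 839 bp upstream were close to wild type: 215 against 177, 222 against 260 and 263 against 275. Downstream, by contrast, values were lower in *prde-1* out to 714 bp. The nucleosome 62 bp downstream was at 11.9 against 205 in wild type, the one at 262 bp at 7.22 against 136, and the one at 714 bp, upstream of 21ur-3745, at 155 against 438. At 500 mM the first downstream nucleosome went the other way, at 131 in *prde-1* and 2.03 in wild type, and the one 275 bp downstream was at 0 in *prde-1* and 391 in wild type. After auxin, nucleosomes 265 to 279 bp downstream were higher than in ethanol at both salt concentrations, at 323 against 91.8 at 150 mM and 501 against 121 at 500 mM. Of all nucleosomes in the window, 7 were lower and 5 higher after auxin at 150 mM, and 6 and 5 at 500 mM. At 150 mM the nucleosome 665 bp upstream was at 0 against 368, and that 712 bp downstream at 10.9 against 168. The first downstream nucleosome was at 266 against 24.1 at 150 mM and at 142 against 350 at 500 mM.

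**Figure D2:**
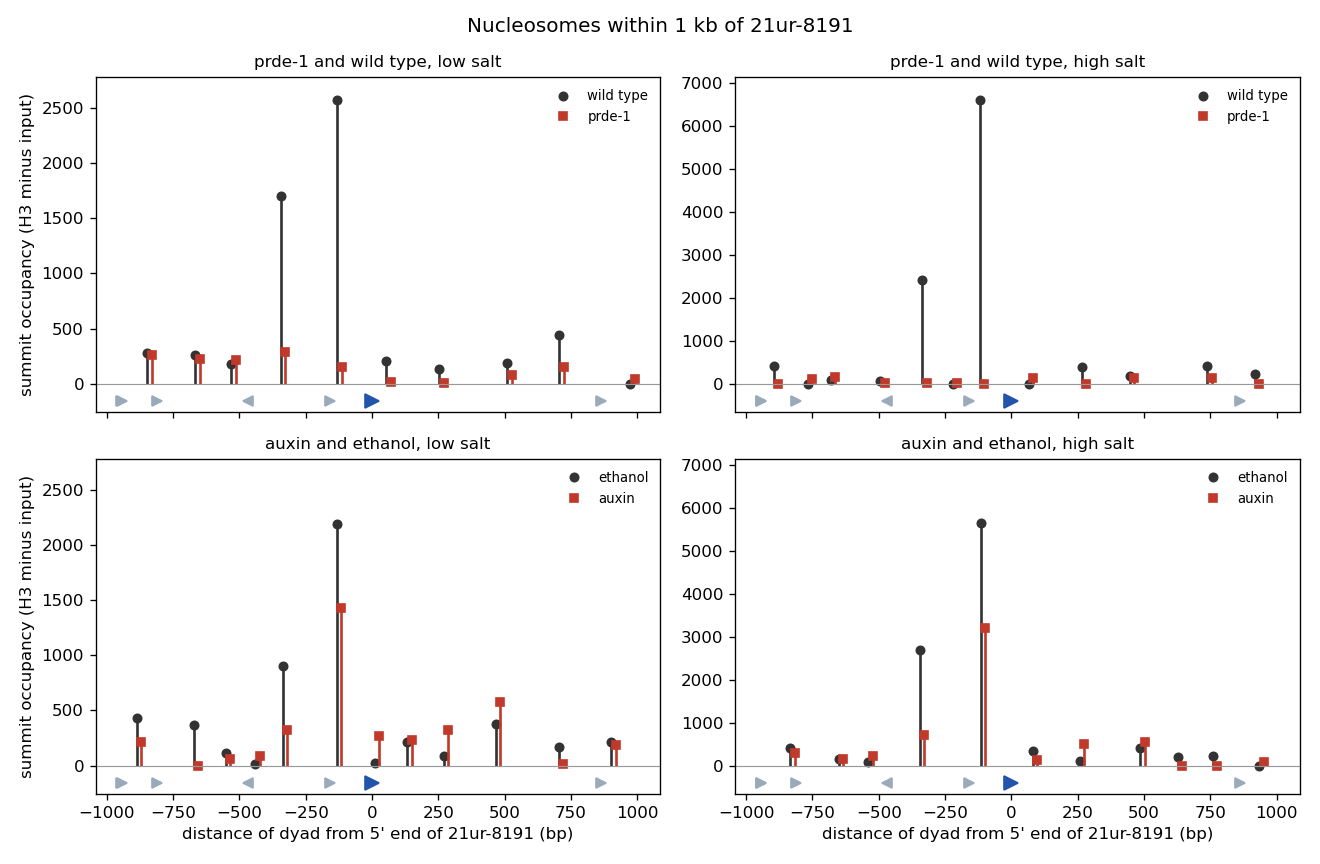
Summit occupancy of each nucleosome within 1 kb of 21ur-8191 by distance of its dyad from the 5′ end, in control (black circles) and treated (red squares) libraries, drawn 8 bp either side of the dyad. Arrowheads mark 5′ ends and strands of piRNA genes, with 21ur-8191 in dark blue. The tall pair in wild type, at 2569.8 and 1703 at 150 mM, is at 155 and 285 in *prde-1*. In the separately normalized ISW-1 table the pair is at 2189.7 and 903 in ethanol and at 1426 and 325 after auxin.

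Around the divergent pair, strong nucleosomes were more numerous, and on the side of 21ur-3117 several were near or above wild type in *prde-1* at 150 mM. On that side the nucleosomes 150, 331 and 543 bp downstream of 21ur-3117 had occupancies of 638, 773 and 779 in *prde-1* against 867, 1155 and 868 in wild type. Those at 645 and 895 bp were higher in *prde-1*, at 838 against 443 and 543 against 323. At 500 mM the same side was mixed. The nucleosome 160 bp downstream was at 62.2 in *prde-1* and 825 in wild type, and the one at 508 bp, next to the 5′ ends of the minus-strand genes 21ur-12867 and 21ur-9234, at 283 against 2495. The nucleosomes at 17 and 352 bp were higher in *prde-1*, at 132 against 60.3 and 438 against 129, and that at 706 bp was at 211 against 254. On the side of 21ur-770, the nucleosome upstream of 21ur-7276 was at 121 in *prde-1* and 691 in wild type at 150 mM, and at 342 and 1861 at 500 mM. The nucleosome over the 5′ part of 21ur-770, 28 bp downstream of its 5′ end at 150 mM and 13 bp at 500 mM, was at 259 against 518 and at 0 against 894. The others on that side went both ways in *prde-1*. At 150 mM the nucleosome 679 bp downstream of 21ur-770 was at 663 against 264. Those at 213, 544 and 833 bp were at 91.6 against 97.2, 0 against 516 and 299 against 871. At 500 mM those at 227, 644 and 872 bp were higher, at 248 against 121, 305 against 2.22 and 440 against 226. The nucleosome at 545 bp was at 0 against 593.

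Some of the same nucleosomes were also compared after auxin. At 500 mM the nucleosome of 21ur-7276 was at 541 after auxin against 1581 in ethanol, and that next to 21ur-9234 and 21ur-12867 at 969.7 against 2054. The nucleosomes 151 and 304 bp downstream of 21ur-3117 were at 727 against 942 and at 1055 against 829. At 150 mM, 4 of the 15 nucleosomes around the pair were lower than in ethanol by more than 2-fold and 2 were higher. Over all nucleosomes these shares were 35.7% and 28.5%. The nucleosome 150 bp downstream of 21ur-3117 was at 411 against 852.

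**Figure D3:**
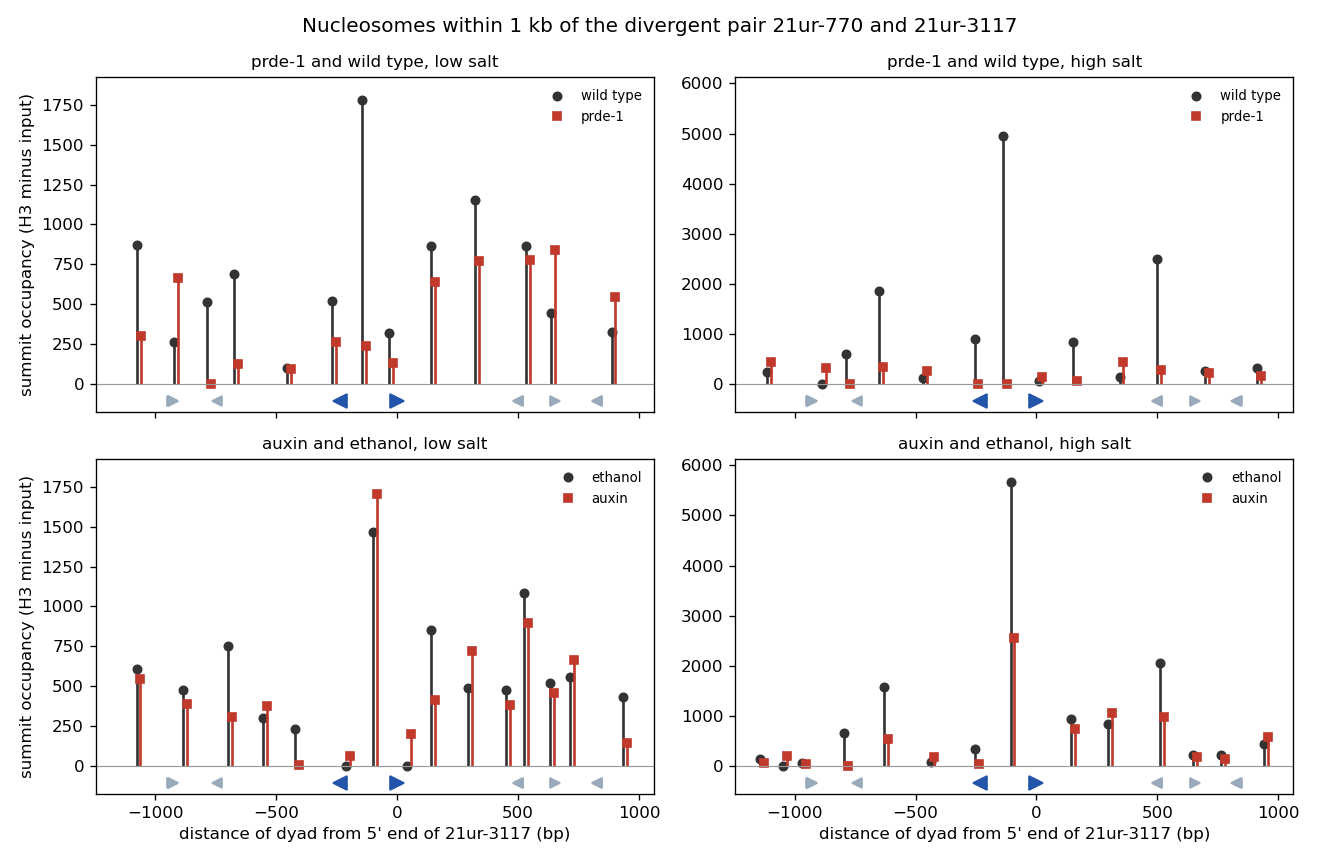
Summit occupancy of each nucleosome within 1 kb of 21ur-770 and 21ur-3117 by distance of its dyad from the 5′ end of 21ur-3117, drawn and coloured as for 21ur-8191, with the pair in dark blue. The shared nucleosome between the 2 dark arrowheads goes from 1782 to 235 in *prde-1* at 150 mM and from 4948 to 0 at 500 mM, and from 1464 to 1704 after auxin at 150 mM and from 5672 to 2562 at 500 mM.

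Counted over all nucleosomes of a window, both loci leaned to lower values in *prde-1*, in comparisons that the choice of the genes used in part. Nucleosomes further out in the domain were lower in *prde-1* too. At 150 mM, 6 of 10 nucleosomes around 21ur-8191 and 5 of 13 around the pair were lower by more than 2-fold, and 1 at each locus was higher, against 31% lower and 30.1% higher over all nucleosomes of the table. At 500 mM, 7 of 12 and 7 of 13 were lower and 3 and 4 were higher, against 31.2% and 32.8%. After auxin at 150 mM, 4 of 12 and 4 of 15 were lower and 3 and 2 were higher, against 35.7% and 28.5%. After auxin at 500 mM, 4 of 11 and 6 of 14 were lower and 3 and 2 were higher, against 32.2% and 35.3%. After auxin the shares lower by more than 2-fold, 26.7% to 42.9%, were thus near those of the genome. Between 17.96% and 24.2% of all nucleosomes of a library are listed at 0, which passes 2-fold wherever the other library is above 1.

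The strongest nucleosome carried a large part of each window. In wild type at 500 mM it held 61.2% of the summed occupancy around 21ur-8191 and 38.9% around the pair. The mean occupancy of the window of 21ur-8191 went from 595 in wild type to 144 in *prde-1* at 150 mM and from 899.97 to 59.8 at 500 mM. Without the strongest nucleosome it still went from 375 to 143 and from 381 to 65.2. Around the pair the means were 670 and 413 at 150 mM and 979 and 201 at 500 mM, and without the shared nucleosome 577 and 428, and 648 and 218. After auxin the mean was 72.6% of ethanol around 21ur-8191 and 87.9% around the pair at 150 mM, and 57.0% and 54.6% at 500 mM. The median change over the window was -1.33 around 21ur-8191 and -0.58 around the pair in *prde-1* at 150 mM, -1.92 and -1.06 at 500 mM, -0.41 and -0.20 after auxin at 150 mM and -0.50 and -0.70 at 500 mM. Over all nucleosomes these medians lay between -0.09 and 0.00. At 10001 to 50000 bp from the strong dyads, the median changes in *prde-1* at 150 and 500 mM were -1.14 and -1.68 around 21ur-8191. Around the pair they were -0.52 and -0.50 at that distance. Upstream nucleosomes of domain piRNA genes had medians of -1.58 and -2.77 in *prde-1*. The window medians in *prde-1* were thus near those of the wider surroundings, apart from the pair at 500 mM.

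The spread of fragments around a dyad is given as a fuzziness score, where a low score means a sharply placed nucleosome. For the nucleosome of 21ur-8191 the score was 28.9 in wild type at 150 mM and 22.1 at 500 mM, where 9.02% of all nucleosomes had a lower score. In ethanol it was 33.8 and 27.3, and after auxin 26.4 and 31.9. For the shared nucleosome it was 36.2 and 27.9 in wild type, 37.3 and 28.9 in ethanol, and 34.6 and 40.0 after auxin. In *prde-1* at 150 mM the scores were 34.1 for 21ur-8191 and 61.2 for the shared nucleosome, and 80.2% of all nucleosomes had a lower score than the latter. Scores where the occupancy is 0 are not given. The 2 strong nucleosomes were thus sharper at 500 mM than at 150 mM in wild type and ethanol, and not sharper after auxin.

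Summit positions differed between libraries at both loci. In wild type the summit was 126 bp upstream of 21ur-8191 at 150 mM and 111 bp at 500 mM, and in ethanol 128 and 125 bp. After auxin the listed summits were 119 and 91 bp upstream. Between the pair, the wild-type summit lay 103 and 106 bp upstream of 21ur-770, and the ethanol summit 141 and 125 bp, nearer to 21ur-3117. After auxin the listed summits were 145 and 148 bp upstream of 21ur-770. The median distance between neighbouring summits above 0 within 1 kb of 21ur-8191 was 201.5 bp in wild type and 184 bp in *prde-1* at 150 mM, and 194 and 184 bp at 500 mM. Around the pair it was 145 and 173 bp at 150 mM, and 178 and 191 bp at 500 mM. At 500 mM the longest gap was 405 bp around 21ur-8191 and 462 bp around the pair in *prde-1*, against 319 and 261 bp in wild type. Summits at 0 are left out. The gap of 462 bp spans the shared nucleosome and the one over the 5′ part of 21ur-770, both listed at 0. It thus partly restates the values by which the genes were chosen. The gap of 405 bp spans the nucleosome 275 bp downstream of 21ur-8191, also listed at 0. At 150 mM the longest gap was 294 bp in *prde-1* and 248 bp in wild type around 21ur-8191, and 234 and 357 bp around the pair. The gap of 357 bp spans a nucleosome with a wild-type occupancy of 443 but no listed wild-type summit. The length of that gap thus rests on a missing position, which the wild-type median of 145 bp also leaves out. The opposite order around the pair does not depend on it. The listed wild-type summits at positions 16392382 and 16392639, with no other nucleosome listed between them, also lie more than 234 bp apart. Treated positions repeat the control position in 29.4% to 34.9% of nucleosomes of a table, where they may not be an independent measurement.

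Base composition differed between the loci. The stretch of 1 nucleosome length around the wild-type high-salt dyad was 32.7% G and C at 21ur-8191 and 25.9% at the pair, against a median of 27.9% for upstream nucleosomes of domain piRNA genes, 76.8% and 29.7% of which were lower. In a BLAST search neither stretch had another match in the genome of at least 80% identity over 50 bases, which bears on whether reads could be placed there. Short of that limit, the stretch of the pair had 33 other alignments, the longest of 148 bases. The stretch of 21ur-8191 had 1, of 40 bases. Whether base composition had a part in the changes was not tested.

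Dyads shared by genes of both strands, like that of 21ur-770 and 21ur-3117, made up 12.7% of the upstream dyads of the domains (1131 of 8894) in the high-salt *prde-1* table. They had a median of 1089.9 in wild type and of 85.8 in *prde-1*, against 629 and 108 for dyads upstream of genes on 1 strand. Of the shared dyads, 29.1% were listed at 0 in *prde-1* at 500 mM, against 24.0% of the others. In the low-salt ethanol and auxin libraries the medians were 542 and 438 for shared dyads and 397 and 324 for the others. Each gene was given the highest dyad within 200 bp, which by construction favours high values for a dyad taken by genes of both strands.

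piRNA genes near the loci were lower in *prde-1* too, over a wide range. Within 10 kb of 21ur-8191, 71 of 77 other piRNA genes had an upstream nucleosome at 150 mM, and 44 of them were lower by more than 2-fold (62.0%) and 5 higher, with a median change of -1.88. At 500 mM 55 of 75 were lower (73.3%) and 11 higher, with a median of -2.29. Within 10 kb of the pair, 29 of 51 were lower at 150 mM (56.9%) and 40 of 51 at 500 mM (78.4%), with medians of -1.39 and -3.96. Over all domain piRNA genes, 61.6% of upstream nucleosomes were lower by more than 2-fold at 150 mM and 73.7% at 500 mM, with median changes of -1.58 and -2.77. The shares of the neighbours were near those of the domains, while the high-salt median around the pair was lower. After auxin at 500 mM, 56 of 77 were lower by more than 2-fold around 21ur-8191 (72.7%) and 22 of 52 around the pair (42.3%), against 50.9% over the domains. At 150 mM these were 20 of 73 (27.4%) and 18 of 52 (34.6%), against 28.1%. Several neighbours share an upstream nucleosome: the 77 genes near 21ur-8191 have 53 distinct ones in the high-salt ISW-1 table. Neighbours are counted by gene and the domains by distinct nucleosome, so the shares and medians of neighbours and domains differ in unit.

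The share of signal left in *prde-1* was also read in bins of distance from the strong dyad. Around 21ur-8191 at 150 mM, *prde-1* had 6.03% of the wild-type value at the dyad itself, 15.6% of the mean within 250 bp, 71.1% at 251 to 500 bp, 44.4% at 501 to 1000 bp and 42.4% at 10001 to 50000 bp. At 500 mM it had 6.41% within 250 bp, 3.23% at 251 to 500 bp, 24.6% at 501 to 1000 bp and 23.7% at 10001 to 50000 bp. Around the pair it had 47.0% within 250 bp, 70.9% at 251 to 500 bp, 73.9% at 501 to 1000 bp and 61.8% at 10001 to 50000 bp at 150 mM, and 13.9%, 69.7%, 29.1% and 43.0% in the same bins at 500 mM. The shares did not rise evenly with distance. The dyads were picked for their fall, so their own place at the bottom is not a finding, and the bins within 1000 bp hold 2 to 7 nucleosomes each.

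**Figure D4:**
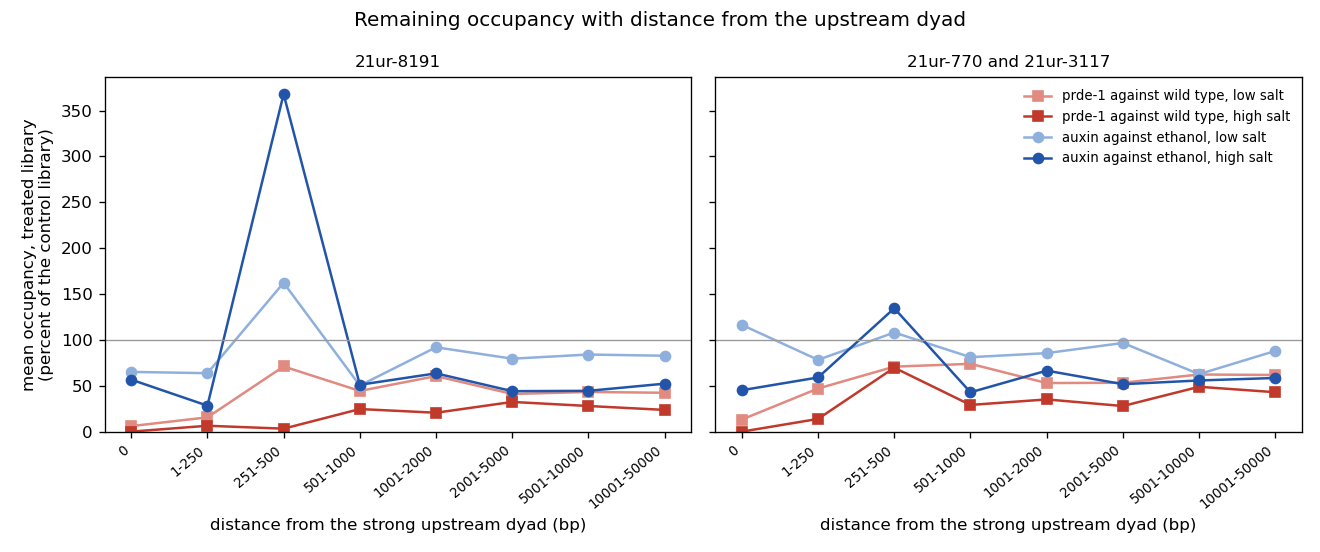
Mean summit occupancy in the treated library as a percent of the control library, at the strong upstream dyad (0) and in bins of distance from it, for the 2 loci and 4 comparisons. From 501 bp outwards, *prde-1* at 500 mM stays between 20.6% and 32.4% around 21ur-8191. The peak of 368% after auxin at 500 mM rests on 2 weak nucleosomes.

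The genes whose upstream nucleosome was most like that of 21ur-8191, by Euclidean distance of log2 occupancy over the 8 libraries, were 21ur-1227 (0.81), 21ur-10140 (0.97) and 21ur-12520 (1.14). Those 3 also follow the chosen genes in the order of fall. In the high-salt table of the ISW-1 strain, the gene 21ur-1227 had 7306 in ethanol and 2355 after auxin, where 21ur-8191 had 5637 and 3196. By the nucleosome nearest to the 5′ end, 21ur-770 was most like 21ur-1271, 21ur-14774 and 21ur-14468 (1.84 each), which share 1 upstream nucleosome, and 21ur-3117 was most like 21ur-7506 (2.07), 21ur-2656 (2.09) and 21ur-3211 (2.18). These distances are larger because the nearest nucleosome is a weak one in 1 table for each gene. In the low-salt ISW-1 table it lies 30 bp upstream of 21ur-770, with 0 in ethanol and 58.3 after auxin. In the low-salt *prde-1* table it lies 25 bp upstream of 21ur-3117, with 315 in wild type and 133 in *prde-1*. With the shared strong nucleosome in all tables, the most alike were 21ur-2241 and 21ur-10355 (0.72), which are themselves divergent and share a nucleosome, and 21ur-6385 (0.76) in the left-hand domain. The nucleosome of 21ur-2241 and 21ur-10355 had 3892 in wild type at 500 mM and was listed at 0 in *prde-1*. In the separate ISW-1 table it had 4727 in ethanol and 3018 after auxin.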

How the data were processed

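H3 native ChIP-seq tables were used as deposited. The methods of the study say that bowtie2 placed the reads on ce11, that low mapping qualities and Picard duplicates were dropped, and that the 2 replicates of a group were downsampled, merged and GC corrected. Fragments of mononucleosome size then went to DANPOS3, with input as control. Only the *prde-1* tables are named as GC corrected. The submitters' processing notes name Bowtie2 and MACS2, with no version. The deposited summit occupancy is a signal, H3 minus input, never below 0. The point occupancy, deposited by the authors, is the value where the 2 libraries differ most, so it selects for difference. The fuzziness score was deposited as the authors' measure of spread, and the deposited positions are in bp. Columns of the authors' own fold changes, differences, p-values and FDR were not used. Merging, scaling to one total and input subtraction mean that replicate spread, a genome-wide loss and read depth cannot be seen, and values clipped at 0 inflate log changes.

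The piRNA domains of chromosome IV were found by counting annotated piRNA genes (Ensembl 115) in 100-kb windows. Windows with 20 or more were joined where at most 300 kb apart, and joined stretches under 1 Mb were dropped. The highest nucleosome centre on chromosome IV, 17493588, was below the length of the reference, 17493829. The upstream nucleosome was the nearest centre within 200 bp upstream of the 5′ end, with the highest control value within 200 bp as an alternative. At 21ur-8191 both rules take the same nucleosome. For the pair, the shared nucleosome described is that of the alternative. Windows ran 1 kb either side of the genes. Named genes were the 3 genes, their neighbours within 1 kb, the 3 next in the order of fall and the 3 most alike for each. Members and lists were chosen with earlier results of these data known. Alternatives were a constant of 10, point occupancy, scaling to the median outside the domains (library medians set to 100), 300 bp, each library's own summit, windows of 500 bp and 2 kb, and an occupancy of at least 50. The most alike genes by the highest value were added after seeing the data. Row choice and changes were tested on simulated data. There no nucleosome but the planted one lay within 200 bp upstream, so the nearest and highest rules could not differ. Python with pandas 2.3.3, numpy 2.4.6 and matplotlib 3.10.9, and BLAST 2.17.0, were used.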

Additional observations from a re-analysis of the deposited data

Results flagged for a closer look

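For both genes of the divergent pair, the change of the nearest upstream nucleosome after auxin had opposite directions at the 2 salt concentrations. For 21ur-3117 it was 0.22 with the 150 mM wash and -1.15 with the 500 mM wash. For 21ur-770 it was 5.89 and -1.15. The low-salt value of 21ur-770 comes from a weak nucleosome listed at 0 in ethanol and 58.3 after auxin, so its size is set by the constant added, and with the shared nucleosome it was 0.22. The difference between the salt concentrations was not tested, since each group is 1 merged library.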

How the results depend on the processing

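No paired analysis was possible because the replicates of each group were merged before the tables were made. Leaving out a replicate could not be run for the same reason. A value counted as stable when it moved by no more than 1.5 times (0.585 on the log2 scale), and 88 of the values stayed within that, 30 moved and 2 reversed. Only a change of sign of a value past 2-fold counts as reversed. Smaller values after auxin at low salt also changed sign, for 21ur-3117 from 0.22 by point occupancy, for the window around 21ur-8191 from -0.41 within 500 bp, and for the window around the pair from -0.20 to 0.22 within 500 bp and to 0.04 with scaling to the median outside the domains. Point occupancy moved 19 values and reversed 1, and left none stable. It is by construction the most different point of each nucleosome. For 21ur-8191 it gave -3.20 and -7.46 in *prde-1* and -7.48 and -8.07 after auxin (low and high salt). For 21ur-770 it gave 7.55 (reversed) and -9.21, and 6.54 and -7.80. For 21ur-3117 it gave -4.75 and -9.21, and -7.56 and -7.80. Window medians by point occupancy around 21ur-8191 were -7.29, -7.64, -7.40 and -7.51 (*prde-1* low and high, auxin low and high), and around the pair -4.75, -7.81, -3.50 and -1.61. With a constant of 10, the values against a library at 0 shrank by construction, to -9.37 for 21ur-8191 and -8.95 for 21ur-770 and 21ur-3117 in *prde-1* at high salt, and to 2.77 for 21ur-770 after auxin at low salt. Taking the highest nucleosome within 200 bp gave 0.22 for 21ur-770 after auxin at low salt and -2.92 for 21ur-3117 in *prde-1* at low salt, since both then refer to the shared nucleosome. Reading each library at its own summit gave 2.92 (reversed) for 21ur-770 after auxin at high salt and -5.21 for 21ur-3117 in *prde-1* at high salt. Both values set different nucleosomes against each other. For 21ur-770 the nearest ethanol summit, at 338, was that of the nucleosome over its 5′ part. The nearest auxin summit, at 2562, was that of the shared nucleosome. For 21ur-3117 the wild-type summit was that of the shared nucleosome, at 4948, and the *prde-1* summit that of a weaker one, at 132. Within 500 bp the window median was -4.00 (*prde-1*, low salt) and 0.60 (auxin, low salt) around 21ur-8191 and -2.79 around the pair in *prde-1* at high salt, which was -0.29 within 2 kb. Scaling to the median outside the domains and an occupancy of at least 50 moved no value beyond 1.5 times. A reach of 300 bp could move none, since a nucleosome found within 200 bp stays the nearest. Its 12 values are among the 88 and say nothing about stability. Unknown depth limits every value near 0.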
